A study of Mus musculus with 36 samples.

Results

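The immediate early genes are a small set of genes that resting cells transcribe within minutes of a growth factor, cytokine, stretch or stress signal, before any new protein is made. The members are a list of names, drawn up with earlier results of these data known: Fos, Fosb, Jun, Junb, Egr1, Egr2, Egr3, Ier2, Atf3 and Dusp1, which are 10 of the 24411 genes measured. All 10 passed the filter on low counts, under which 12509 genes were tested. They were followed in mesenchymal stem cells (MSCs) cultured from 4 tissues of young adult C57BL6/J mice. RNA was analysed here from 3 libraries of femoral bone marrow MSCs (fBM-MSCs), 2 of vertebral bone marrow MSCs (vBM-MSCs), 3 of adipose tissue MSCs (A-MSCs) and 3 of lung MSCs (P-MSCs), and open chromatin was profiled by ATAC-seq in the same 4 kinds of culture. No stimulus is described for any culture, and no agent differs between the groups by the labels. All were grown on collagen in MesenCult medium with a Rock inhibitor and used after at most a few passages. Time since feeding, cell density and the exact passage of each culture are not given. Differences in such handling cannot be told apart from tissue of origin, also between both marrow sources. Marrow cells were freed by crushing bone and adipose and lung cells by collagenase digestion, so tissue of origin and way of isolation cannot be told apart between marrow and non-marrow MSCs. The same mice gave the 4 tissues, but the labels do not tie libraries to mice, so the tests treated each library as independent and their p-values measure the spread between these libraries. The labels give all RNA libraries the same sequencing run. They list a further vBM-MSC library, replicate 3, which was not used here.

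Serum response factor (SRF), sitting on CArG boxes beside its ternary complex partners, and CREB, sitting on cAMP response elements (CRE), are already bound at many of these genes and are switched on by MAP kinases and related kinases. Fos, Fosb, Jun, Junb and Atf3 encode basic leucine zipper proteins that pair as AP-1 and related dimers, Egr1, Egr2 and Egr3 encode zinc finger factors, Ier2 encodes a small nuclear protein, and Dusp1 encodes a phosphatase that turns MAP kinases off again. Their mRNAs also decay fast, which keeps each response short. In mesenchymal cells AP-1 and EGR factors are known for roles in growth, matrix genes and wound responses.

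The libraries held 19569650 to 40517739 expected counts (estimated read counts per gene). Markers were checked as summed TPM (a level scaled for transcript length and library size). The 4 positive MSC surface markers summed to 983 to 2336 TPM over the libraries, and the integrin gene Itgb1 was the highest of them in every library but vBM-MSC replicate 1, where Ly6a was at 805.5 TPM and Itgb1 at 739.1 TPM. The leukocyte marker Ptprc was at most 0.35 TPM in any library. Of the negative markers Cd34 reached the highest levels, at 79.2, 72.7 and 10.2 TPM in the fBM-MSCs and at most 7.46 TPM elsewhere. The remaining negative marker, Pecam1, was at 3.84 TPM in A-MSC replicate 1 and at most 0.34 TPM in any other library. The 12 macrophage markers summed to 14.7 to 52.1 TPM, and Adgre1 was at 0 in fBM-MSCs, vBM-MSCs and P-MSCs. They did not move together. Lyz2 was the highest of them in the marrow and adipose MSCs but at most 2.71 TPM in P-MSCs, Cd68 was at 12.3 to 18.5 TPM in fBM-MSCs and 0.87 to 2.72 TPM in vBM-MSCs, and Csf1r was highest in A-MSCs, at 5.46 to 6.56 TPM. The 8 endothelial markers summed to 3.53 to 55.5 TPM in A-MSCs, the highest value being that of replicate 1, and to at most 8.29 TPM elsewhere. The 7 epithelial markers summed to at most 8.75 TPM and the 6 erythroid markers to at most 0.13 TPM. The part of these cells in the levels below was not tested. In bulk RNA, fewer cells that express a gene and less RNA per cell cannot be told apart.

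Promoters of members with different layouts of the known response elements are printed here, 5′ to 3′ on the strand of the gene. Of the 10 members, 7 matched an entry in the RefSeq promoter table of GRCm38, namely Fos, Fosb, Jun, Junb, Egr2, Atf3 and Dusp1, and motifs were searched in the 500 bases upstream of their starts. The searched motifs were the CArG box, the CRE (TGACGTCA), the CRE core (TGACG, the first 5 letters of the CRE), the AP-1 site (TGACTCA) and the Jun1 site (TGACATCA, an AP-1-like element), each on both strands. Every full CRE also counts as 2 CRE cores, 1 on each strand. Capitals mark CArG boxes, CREs, CRE cores, AP-1 sites and Jun1 sites. Fos is shown from 330 to 31 bases upstream of its start (chr12:85473560-85473859, plus strand), and the others from 300 bases to 1 base upstream: Fosb (chr7:19310046-19310345, minus strand), Egr2 (chr10:67537569-67537868, plus strand), Jun (chr4:95052223-95052522, minus strand) and Dusp1 (chr17:26508473-26508772, minus strand).
Fos promoter: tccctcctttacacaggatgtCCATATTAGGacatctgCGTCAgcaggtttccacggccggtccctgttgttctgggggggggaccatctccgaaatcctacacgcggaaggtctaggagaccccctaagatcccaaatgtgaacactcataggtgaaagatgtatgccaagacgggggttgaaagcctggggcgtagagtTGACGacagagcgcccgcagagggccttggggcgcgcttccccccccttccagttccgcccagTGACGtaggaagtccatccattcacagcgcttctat
Fosb promoter: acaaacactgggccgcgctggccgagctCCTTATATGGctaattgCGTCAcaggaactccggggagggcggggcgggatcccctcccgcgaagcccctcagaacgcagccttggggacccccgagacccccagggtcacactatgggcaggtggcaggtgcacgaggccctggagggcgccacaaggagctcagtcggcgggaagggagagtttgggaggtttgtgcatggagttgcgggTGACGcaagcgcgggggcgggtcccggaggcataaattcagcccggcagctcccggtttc
Egr2 promoter: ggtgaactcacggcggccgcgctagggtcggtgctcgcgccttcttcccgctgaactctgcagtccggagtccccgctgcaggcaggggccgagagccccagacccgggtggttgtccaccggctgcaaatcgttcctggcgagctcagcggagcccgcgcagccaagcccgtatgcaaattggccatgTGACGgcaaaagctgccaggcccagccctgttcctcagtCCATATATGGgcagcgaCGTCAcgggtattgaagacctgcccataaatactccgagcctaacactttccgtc
Jun promoter: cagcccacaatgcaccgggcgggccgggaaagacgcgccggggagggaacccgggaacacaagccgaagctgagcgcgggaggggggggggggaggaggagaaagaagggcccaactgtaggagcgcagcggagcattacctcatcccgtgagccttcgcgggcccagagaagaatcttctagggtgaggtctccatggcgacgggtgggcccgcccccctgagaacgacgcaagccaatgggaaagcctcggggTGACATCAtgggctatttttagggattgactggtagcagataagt
Dusp1 promoter: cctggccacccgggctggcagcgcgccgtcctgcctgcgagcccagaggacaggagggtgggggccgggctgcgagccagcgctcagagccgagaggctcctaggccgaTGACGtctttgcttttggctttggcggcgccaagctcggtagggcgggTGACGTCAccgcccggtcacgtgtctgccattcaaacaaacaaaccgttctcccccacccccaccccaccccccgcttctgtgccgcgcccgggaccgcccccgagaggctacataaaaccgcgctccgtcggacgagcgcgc
In Fos the CArG box lies 309 to 300 bases upstream of the start and is followed by 3 CRE cores within the stretch shown. Fosb has the same order, with a CArG box at 272 to 263 bases and a CRE core at 255 to 251. Egr2 has its CArG box close to the start, at 72 to 63 bases, and a second one at 375 to 366. Jun has no CArG box in its 500 bases and a Jun1 site at 45 to 38. Dusp1, likewise without a CArG box, has a full CRE at 143 to 136 bases.

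CArG boxes were found in 3 of the 7 searched members and in 2.36% of the 9143 gene promoters searched alike. A full CRE was found in 1 member and in 3.41% of these promoters, and a CRE core in all 7 members and in 38.1%. The AP-1 site was in none of the 7 members and in 6.41% of all promoters. The Jun1 site was in 1 member, Jun, against 2.11%. These matches are descriptions of letters and do not show binding.

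vBM-MSCs had the highest mean TPM for 9 of the 10 members, and P-MSCs for the remaining one, Jun. In 7 members (Fos, Junb, Egr1, Egr2, Egr3, Ier2 and Dusp1) both vBM-MSC libraries lay above all 9 other libraries in TPM, and also in CPM (counts scaled to library size) with TMM factors (a correction of library sizes for composition). In CPM of the plain totals this held for the others but not for Ier2, where vBM-MSC replicate 1 was at 56.8 and P-MSC replicate 3 at 57.6. Over all tested genes, 7.35% had both vBM-MSC libraries above every other library in TPM. At the other end, Fos, Fosb and Ier2 were lower in all 3 fBM-MSC libraries than in every other library, a pattern of 9.09% of all tested genes, and Egr2 was lowest in all 3 P-MSC libraries, as were 8.17%.

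**Figure D1:**
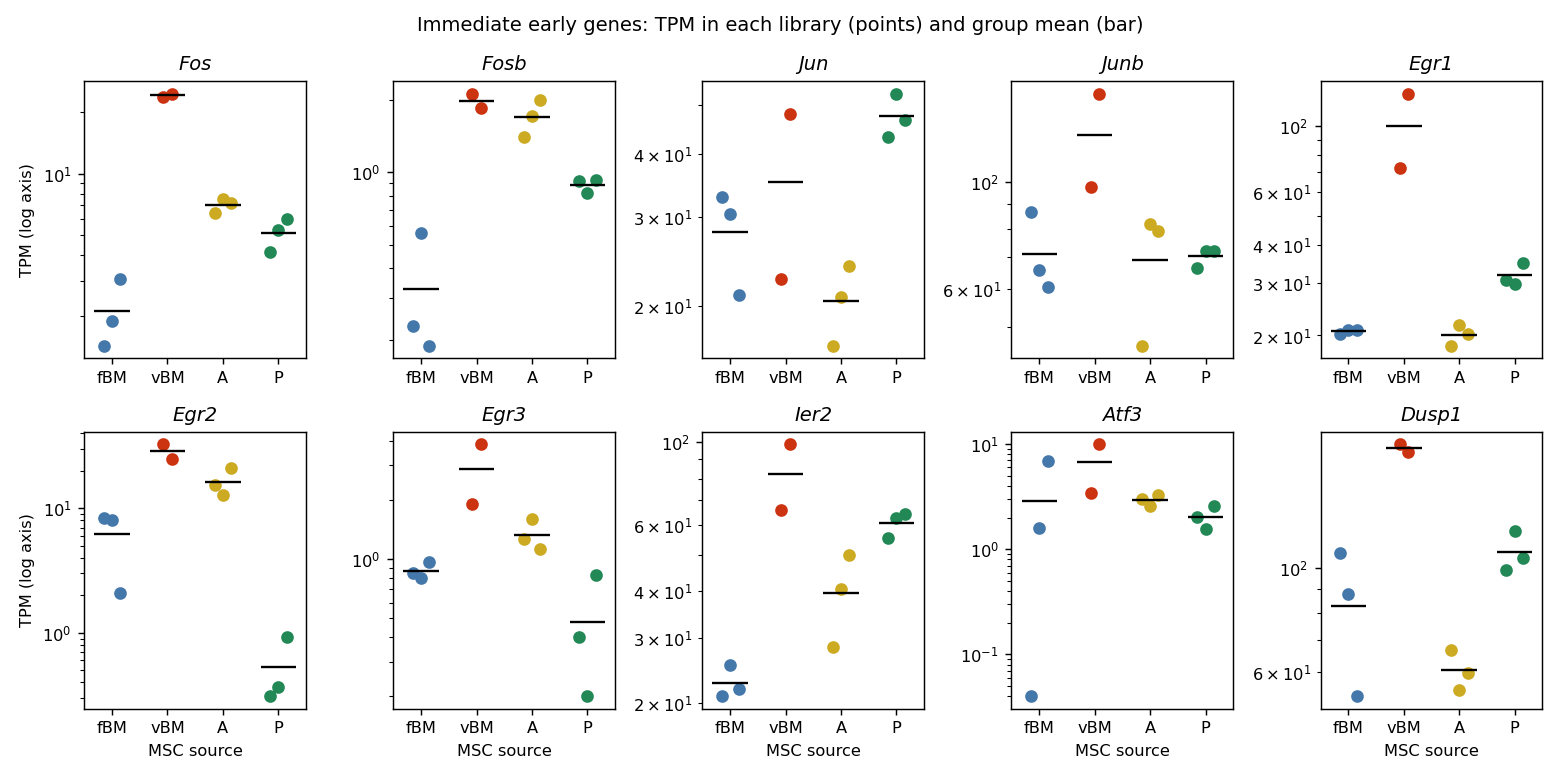
TPM of each immediate early gene (log axis, own scale for each gene) in each library of MSCs from femoral marrow (fBM), vertebral marrow (vBM), adipose tissue (A) and lung (P), with points for libraries and bars for group means. The vBM points are the highest in 7 of the 10 panels, and the lowest Atf3 point, at 0.04 TPM, is a library with 1 count.

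Among the AP-1 genes, Fos varied most between the tissues. Fos, the founding partner of Jun in AP-1, was at 1.44, 1.90 and 3.04 TPM in fBM-MSCs, 23.9 and 24.7 TPM in vBM-MSCs, 6.42, 7.49 and 7.16 TPM in A-MSCs, and 4.13, 5.30 and 5.99 TPM in P-MSCs. The groups did not overlap, and both marrow sources stood at the ends of the range. The 4 tissues differed (adjusted p = 1.02e-05, edgeR quasi-likelihood F test), and fBM-MSCs were below vBM-MSCs by 3.46 ± 0.29 (SE) on the log2 scale (adjusted p = 5.31e-05). In the order of levels, vBM-MSCs exceeded A-MSCs by 1.68 ± 0.27 (SE) log2, A-MSCs and P-MSCs did not pass the test (0.65 ± 0.25 (SE) log2, adjusted p = 0.0703), and P-MSCs exceeded fBM-MSCs, where the fBM-MSC level fell by 1.13 on the log2 scale.

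Fosb, a close relative of Fos, was scarce throughout, at 0.19 to 0.56 TPM in fBM-MSCs, 1.85 to 2.13 TPM in vBM-MSCs, 1.40 to 2.0 TPM in A-MSCs and 0.82 to 0.93 in P-MSCs. The fBM-MSC libraries did not overlap with any other library, while vBM-MSC and A-MSC libraries overlapped. fBM-MSCs were lower than vBM-MSCs (log2 fold change -2.58 ± 0.47, SE, adjusted p = 0.00536), than A-MSCs (-2.46 ± 0.44) and than P-MSCs (-1.33 ± 0.43), the last of which was lost without fBM-MSC replicate 1 or 3 or P-MSC replicate 1 or 3. With only the 2 tissues compared in the fit, the adjusted p was 0.0858 against vBM-MSCs and 0.0820 against P-MSCs. The difference between vBM-MSCs and A-MSCs was 0.12 ± 0.45 (SE) log2, which did not pass the test. vBM-MSCs exceeded P-MSCs by 1.25 ± 0.45 (SE) log2 (adjusted p = 0.0473), a call lost without either vBM-MSC library or any one A-MSC or P-MSC library and in 2 of 7 other settings, with an adjusted p of up to 0.199.

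Jun, which can pair with itself as well as with Fos proteins, had another order from Fos. Its level was 32.8, 30.4 and 21.0 TPM in fBM-MSCs, 22.6 and 48.0 TPM in vBM-MSCs, 16.7, 20.8 and 23.9 TPM in A-MSCs, and 43.3, 52.7 and 46.6 TPM in P-MSCs. P-MSCs lay above fBM-MSCs and A-MSCs without overlap, and the 2 vBM-MSC libraries were so far apart that they spanned most of the range. Jun was higher in P-MSCs than in A-MSCs (A-MSCs against P-MSCs, -1.02 ± 0.24 (SE) log2, adjusted p = 0.00795) and than in fBM-MSCs (fBM-MSCs against P-MSCs, -0.64 ± 0.24, adjusted p = 0.0432). The latter call was lost in 6 of 11 fits that left out 1 library, namely fBM-MSC replicate 2 or 3, A-MSC replicate 2 or any P-MSC replicate, and in 1 of 8 other settings, with an adjusted p of up to 0.133. Among the 4 tissues the Jun call was lost without P-MSC replicate 2. No comparison of Jun with vBM-MSCs passed the test.

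Junb, an AP-1 partner that often restrains Jun, was at 86.8, 65.7 and 60.4 TPM in fBM-MSCs, 97.7 and 153 TPM in vBM-MSCs, 45.7, 82.0 and 79.4 TPM in A-MSCs, and 66.3, 72.0 and 72.1 TPM in P-MSCs. The groups other than vBM-MSCs overlapped one another. vBM-MSCs exceeded P-MSCs by 0.90 ± 0.24 (SE) log2 (adjusted p = 0.0124) and A-MSCs by 0.73 ± 0.24 (adjusted p = 0.0484), and fBM-MSCs against vBM-MSCs missed the threshold at -0.76 ± 0.24 (adjusted p = 0.0642). The call against A-MSCs was lost in 8 of 11 fits that left out 1 library (all but those without fBM-MSC replicate 1 or 3 or vBM-MSC replicate 1) and in 2 of 8 other settings, with an adjusted p of up to 0.288, and the call against P-MSCs was lost without vBM-MSC replicate 2. The call among the 4 tissues was lost without vBM-MSC replicate 2 (adjusted p = 0.266), without any one of the P-MSC libraries and in 1 other setting.

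Atf3, a stress-induced factor that binds CRE-like sites, was the only member that did not pass the test among the 4 tissues (adjusted p = 0.429, unadjusted p = 0.384). It was at 0.04, 1.59 and 6.98 TPM in fBM-MSCs, 3.46 and 9.97 TPM in vBM-MSCs, 3.0, 2.59 and 3.29 TPM in A-MSCs, and 2.01, 1.56 and 2.56 TPM in P-MSCs. The 3 fBM-MSC libraries covered more than the range of A-MSCs and P-MSCs together, and the lowest of them rests on 1 read. The biological coefficient of variation (BCV, the spread between replicates that counting does not give) of Atf3 was 77.5%, higher than that of 94.4% of the tested genes, and the difference between vBM-MSCs and P-MSCs of 1.75 ± 0.99 (SE) log2 was not called (adjusted p = 0.184).

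Of the EGR genes, Egr2 had the widest range of mean TPM of all members, 53.7 times, while Egr1 and Egr3, at 4.98 and 6.02 times, lay below Fos, at 11.4 times. Egr1, which binds GC-rich promoters and is among the first genes to answer a serum stimulus, was at 20.3, 20.9 and 20.9 TPM in fBM-MSCs, 72.1 and 128 TPM in vBM-MSCs, 18.5, 21.6 and 20.2 TPM in A-MSCs, and 30.5, 29.7 and 34.9 TPM in P-MSCs. The vBM-MSC libraries were far above the rest, P-MSCs came next without overlap, and fBM-MSCs and A-MSCs overlapped. vBM-MSCs were 4.63-fold above fBM-MSCs (fBM-MSCs against vBM-MSCs, log2 fold change -2.21 ± 0.17, SE, adjusted p = 3.93e-05), 4.53-fold above A-MSCs (2.18 ± 0.16, adjusted p = 8.41e-06) and 3.29-fold above P-MSCs (1.72 ± 0.16, adjusted p = 1.73e-05). The difference between fBM-MSCs and A-MSCs was -0.03 ± 0.15 (SE) log2. Its BCV of 14.3% was among the lower ones, at percentile 26.6 of the tested genes.

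Egr2, known from Schwann cells, hindbrain and lymphocytes, split P-MSCs from the rest. It was at 8.35, 8.12 and 2.08 TPM in fBM-MSCs, 32.6 and 25.0 TPM in vBM-MSCs, 15.4, 12.7 and 21.0 TPM in A-MSCs, and 0.31, 0.37 and 0.93 TPM in P-MSCs. The groups did not overlap, in the order vBM-MSCs, A-MSCs, fBM-MSCs and P-MSCs. Against P-MSCs it was higher by 5.85 ± 0.60 (SE) log2 in vBM-MSCs (57.8-fold, adjusted p = 2.77e-05), by 5.14 ± 0.57 in A-MSCs (35.2-fold, adjusted p = 0.000109) and by 3.65 ± 0.55 in fBM-MSCs (12.5-fold, adjusted p = 0.000254). vBM-MSCs and A-MSCs, neighbours in this order, did not pass the test (0.71 ± 0.50, SE, adjusted p = 0.331).

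Egr3, whose product is related to that of Egr2 and can act on the same sites, had low levels, from 0.80 to 0.97 TPM in fBM-MSCs, 1.90 to 3.84 TPM in vBM-MSCs, 1.12 to 1.59 TPM in A-MSCs and 0.20 to 0.83 in P-MSCs. The order of the group means was that of Egr2, and P-MSCs and fBM-MSCs overlapped slightly. Egr3 was lower in P-MSCs than in vBM-MSCs, which exceeded it by 2.64 ± 0.53 (SE) log2 (adjusted p = 0.00217), and than in A-MSCs (1.66 ± 0.48, adjusted p = 0.0230), a call lost without A-MSC replicate 2 or P-MSC replicate 1 or 2. Egr4, listed apart as the remaining EGR gene, was called among the tissues (adjusted p = 0.0243). Its means were low and spread widely, at 1.23 ± 0.644 TPM (SD, n = 2) in vBM-MSCs and 0.657 ± 0.368 (SD, n = 3) in A-MSCs. In P-MSCs the mean was 0.167 ± 0.220 TPM (SD, n = 3) and in fBM-MSCs 0.0433 ± 0.0404 (SD, n = 3).

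Ier2, a small nuclear protein gene with no intron, was at 20.9, 25.4 and 21.9 TPM in fBM-MSCs, 65.9 and 98.9 TPM in vBM-MSCs, 28.3, 40.6 and 49.9 TPM in A-MSCs, and 55.3, 62.6 and 64.3 TPM in P-MSCs. The groups did not overlap, although the lower vBM-MSC library lay close to the highest P-MSC library. fBM-MSCs were lower than vBM-MSCs (log2 fold change -1.80 ± 0.21, SE, adjusted p = 0.000330), than A-MSCs (-0.88 ± 0.19, adjusted p = 0.00332) and than P-MSCs (-1.29 ± 0.19, adjusted p = 0.000194). The neighbours vBM-MSCs and P-MSCs (0.51 ± 0.20, SE, adjusted p = 0.0699) and A-MSCs and P-MSCs (-0.41 ± 0.18, adjusted p = 0.112) did not pass the test.

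Dusp1, the phosphatase that closes the loop on ERK, p38 and JNK signalling, had the highest mean level of the members per transcript length. It was at 108, 87.8 and 53.2 TPM in fBM-MSCs, 183 and 176 TPM in vBM-MSCs, 66.8, 54.8 and 59.6 TPM in A-MSCs, and 99.0, 120 and 105 TPM in P-MSCs. vBM-MSCs stood above every other library, and fBM-MSCs overlapped with both A-MSCs and P-MSCs. vBM-MSCs exceeded A-MSCs by 1.46 ± 0.23 (SE) log2 (adjusted p = 0.00113), P-MSCs by 0.82 ± 0.23 (adjusted p = 0.0154) and fBM-MSCs 2.11-fold (fBM-MSCs against vBM-MSCs, -1.08 ± 0.23, adjusted p = 0.0125). The call against P-MSCs was lost without vBM-MSC replicate 1 or P-MSC replicate 1.

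Counted over the members, 9 of 10 differed among the 4 tissues, where 60.6% of all tested genes did. Between both marrow sources 6 of 10 were called, all 6 lower in fBM-MSCs (Fos, Fosb, Egr1, Egr2, Ier2 and Dusp1), where 12.8% of all tested genes were called and 7.56% were lower in fBM-MSCs. The median log2 fold change was -1.73 over the 10 members and 0.02 over all tested genes, and all 10 members had a negative value. Of the 6 calls, Fos, Egr1 and Ier2 held in every alternative, while a fit on these 2 tissues alone kept 3 members and without vBM-MSC replicate 1 the calls of Egr2 and Dusp1 were lost.

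Against A-MSCs, 5 of 10 members were called in vBM-MSCs, all 5 higher, where 25.6% of all tested genes were called and 13.2% were higher. Of these 5, Fos, Egr1 and Dusp1 held in every alternative, and the count was 3 without vBM-MSC replicate 2. Against P-MSCs, 7 of 10 were called in vBM-MSCs, all 7 higher, where 38.7% were called and 21% were higher. For fBM-MSCs against A-MSCs, 4 of 10 were called, all 4 lower in fBM-MSCs, where 40.9% were called and 20.3% were lower, so that the share of members called was near the background. fBM-MSCs against P-MSCs gave 6 of 10, 5 lower and Egr2 higher in fBM-MSCs, where 47.7% of all tested genes were called and 23% were lower. These comparisons share libraries and are not independent of each other.

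Between the non-marrow sources, 5 of 10 members were called, with Jun, Egr1 and Dusp1 lower and Egr2 and Egr3 higher in A-MSCs than in P-MSCs, where 30.9% of all tested genes were called, 14.9% lower and 16% higher. Of these 5, Jun and Egr2 held in every alternative. Leaving out 1 library moved this count to between 2 and 7, and it was 2 without A-MSC replicate 2, P-MSC replicate 1 or P-MSC replicate 2 and 3 without A-MSC replicate 1 or P-MSC replicate 3.

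Bone marrow MSCs against non-bone marrow MSCs, each taken as the mean of its 2 tissues, gave 5 of 10 members, all 5 higher in marrow (Junb, Egr1, Egr2, Egr3 and Dusp1), where 47.2% of all tested genes were called and 24.8% were higher, so that the share of members called was near the background. These averages join unlike tissues. For Fos the marrow mean joins the lowest and the highest of the 4 groups, and the difference was 0.27 ± 0.19 (SE) log2 (adjusted p = 0.257). For Egr1 the fBM-MSC level was that of A-MSCs, and the marrow difference of 0.84 ± 0.11 (SE) log2 (adjusted p = 8.59e-05) rests on vBM-MSCs. The count was 3 without vBM-MSC replicate 2, A-MSC replicate 1, P-MSC replicate 1 or P-MSC replicate 2.

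**Figure D2:**
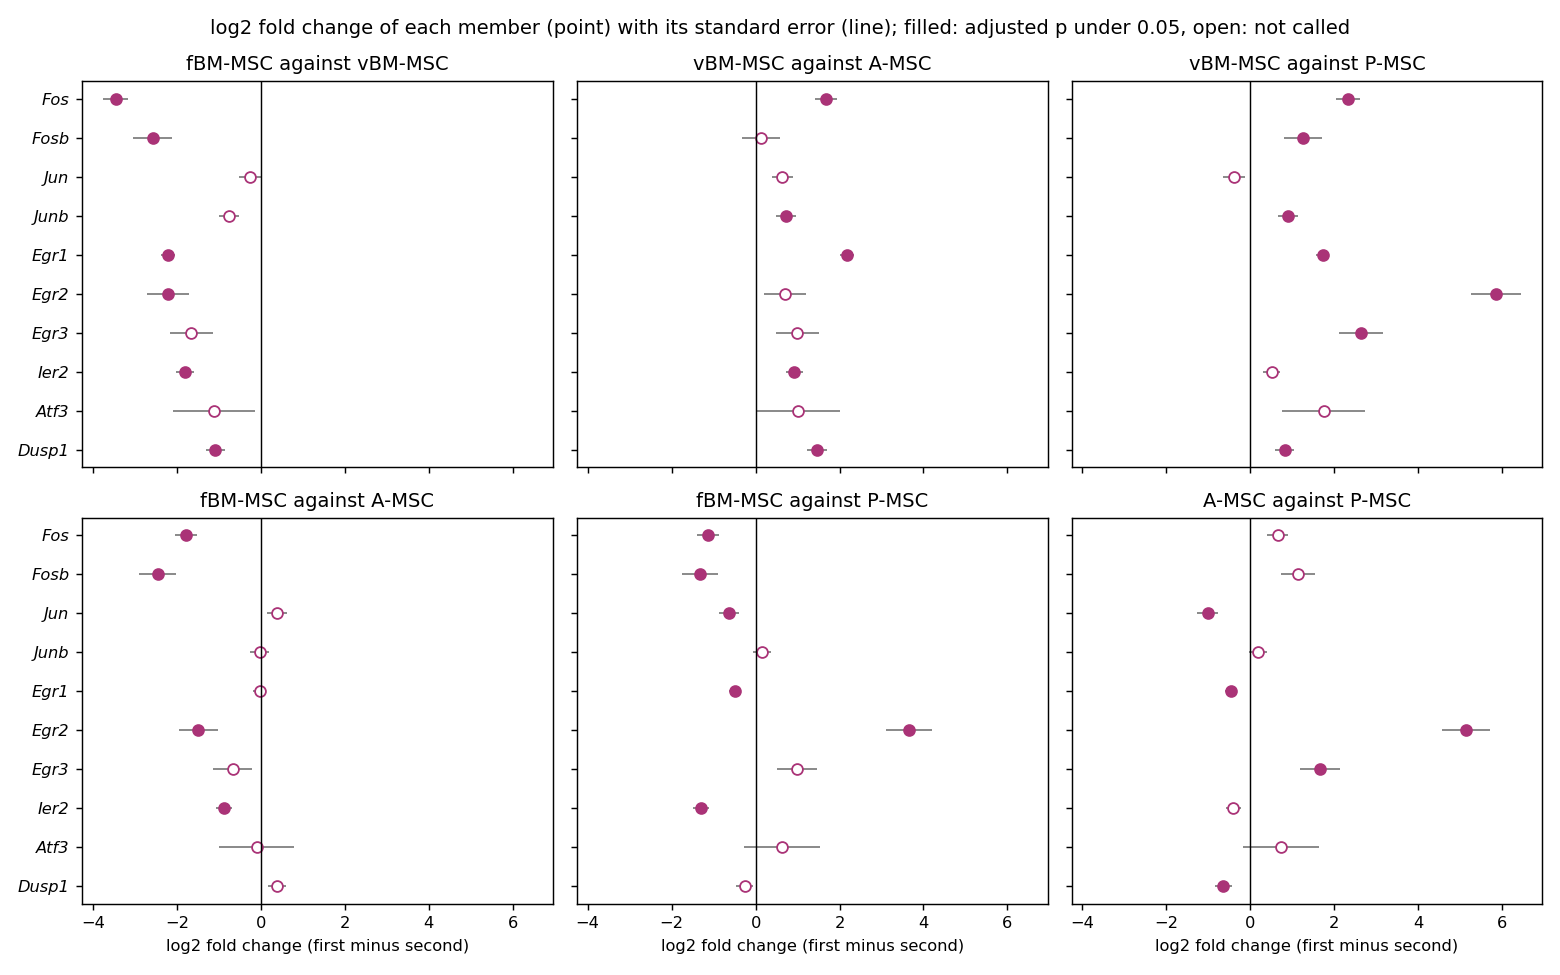
log2 fold change of each member in the 6 pairs of tissues, as the first tissue minus the second, with standard errors as lines and with filled points for an adjusted p under 0.05. All 10 points lie left of 0 in fBM-MSCs against vBM-MSCs, and Egr2 against P-MSCs lies farthest right, at up to 5.85.

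The other genes of the pathway were taken from lists that cover its further parts. Among 40 other early response genes, all tested, 17 were called between fBM-MSCs and vBM-MSCs, 15 lower and 2 higher in fBM-MSCs, where 7.56% of all tested genes were lower and 5.24% higher, and the median log2 fold change was -0.57. In fBM-MSCs against A-MSCs 18 of the 40 were lower and 3 higher, where 20.3% of all tested genes were lower and 20.6% higher. Against P-MSCs 18 of the 40 were lower and 5 higher, where 23% of all tested genes were lower and 24.7% higher. The 3 that differed most clearly among the 4 tissues were Zfp36, Il6 and Gadd45a. Zfp36, whose product speeds the decay of cytokine mRNAs, had means of 5.55 ± 0.269 TPM (SD, n = 3) in fBM-MSCs, 29.7 ± 0.0212 (SD, n = 2) in vBM-MSCs, 27.6 ± 2.86 (SD, n = 3) in A-MSCs and 22.5 ± 1.44 (SD, n = 3) in P-MSCs. The cytokine gene Il6 had means of 6.97 TPM in fBM-MSCs, 93.7 TPM in vBM-MSCs, 146 TPM in A-MSCs and 24.7 in P-MSCs. Gadd45a, a growth arrest and DNA damage gene, went the other way, with 44.0 TPM in fBM-MSCs and 17.3, 9.05 and 6.34 TPM in vBM-MSCs, A-MSCs and P-MSCs.

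Of these early response genes several were named after their values were seen. Nr4a1, an orphan nuclear receptor gene, was lower in fBM-MSCs than in vBM-MSCs (log2 fold change -2.20 ± 0.18, SE, adjusted p = 5.31e-05), than in A-MSCs (-2.05 ± 0.17) and than in P-MSCs (-1.76 ± 0.17). Ptgs2, which encodes the inducible cyclooxygenase, was lower in fBM-MSCs than in vBM-MSCs (-1.88 ± 0.22, adjusted p = 0.000374), than in A-MSCs (-2.31 ± 0.21) and than in P-MSCs (-1.94 ± 0.20). Both had their low point in fBM-MSCs, but as genes picked by their values they add no support to the pattern of the members. Of the same 40 genes, 2 were called higher in fBM-MSCs than in vBM-MSCs, 3 than in A-MSCs and 5 than in P-MSCs.

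Of 13 further AP-1 and AP-1-binding factors listed, 10 were tested, and 4 were called among the tissues, where 60.6% of all tested genes were called, with Jund, Fosl1 and Atf4 as the clearest. Only Fosl1, a Fos relative, was called between fBM-MSCs and vBM-MSCs, with means of 58.9 TPM in fBM-MSCs, 92.7 TPM in vBM-MSCs, 72.7 TPM in A-MSCs and 85.7 in P-MSCs. Jund, a Jun relative that is made without a stimulus, had means of 3.69, 4.06, 1.74 and 2.44 TPM in the same order, and Atf4, the effector of the integrated stress response, had 119, 217, 195 and 190 TPM. Fosl1 was thus present at a higher TPM than Fos in every tissue, and the median log2 fold change of the list between fBM-MSCs and vBM-MSCs was -0.29, against 0.02 over all tested genes.

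**Figure D3:**
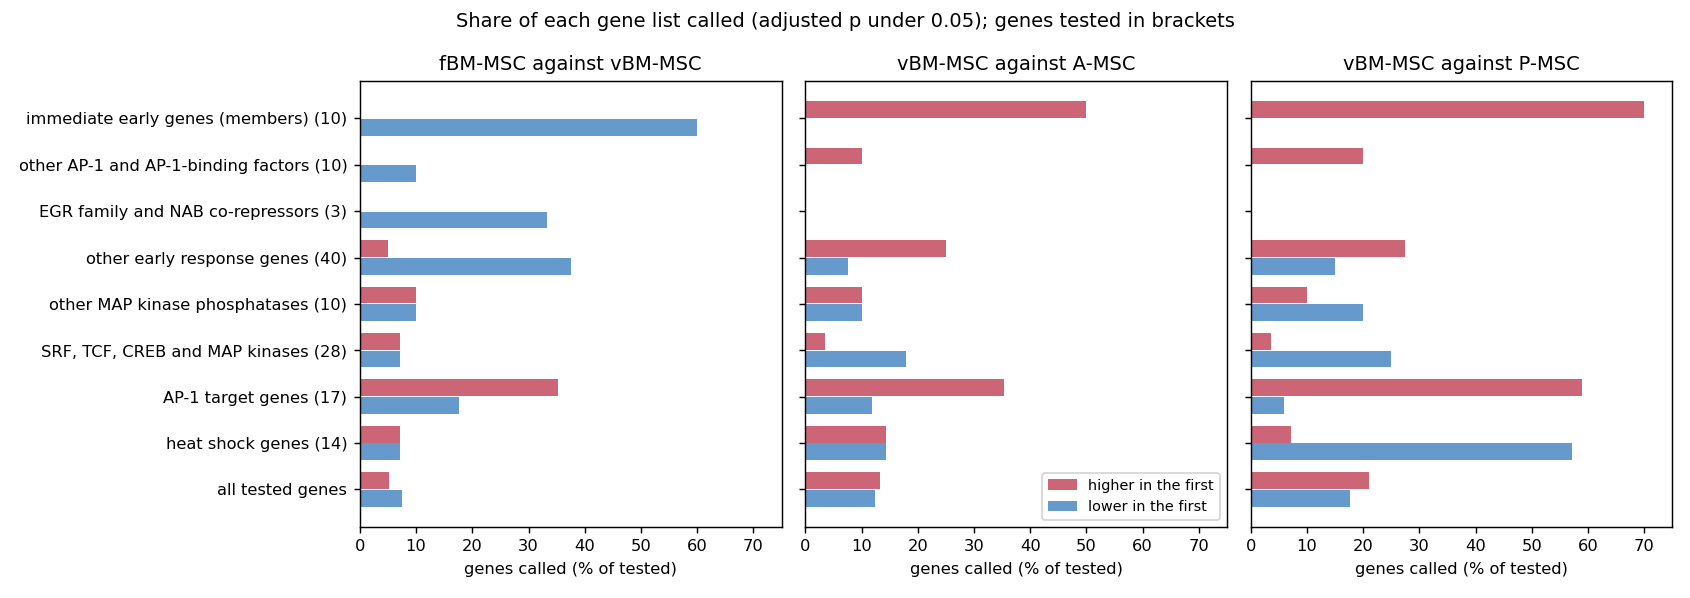
Share of the tested genes of each list (percent, with the number tested in brackets) that were called higher or lower in the first tissue, for the comparisons that hold vBM-MSCs, with all tested genes as the last bars. In fBM-MSCs against vBM-MSCs, 6 of 10 members and 15 of 40 other early response genes were lower in fBM-MSCs, against 7.56% of all tested genes.

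Of 28 genes for SRF, its TCF partners, CREB and MAP kinases, which lie upstream of the members, 4 were called between fBM-MSCs and vBM-MSCs, 2 in each direction, a share near the 12.8% of all tested genes, and the median log2 fold change was -0.02. Srf itself had means of 2.68 TPM in fBM-MSCs, 3.86 TPM in vBM-MSCs, 7.49 TPM in A-MSCs and 6.92 in P-MSCs (adjusted p = 4.54e-05 among the 4 tissues). Mapk14, which encodes p38 alpha, had means of 13.3, 18.7, 31.7 and 31.04 TPM in the same order, and Rps6ka4, a kinase gene downstream of p38 and ERK, had 39.5, 41.7, 42.0 and 75.7 TPM. Mean Srf and Mapk14 were highest in A-MSCs, whereas 9 of the 10 members had their highest mean in vBM-MSCs. The part of these genes in the levels of the members was not tested. Of the 10 other MAP kinase phosphatases 2 were called between the marrow sources, 1 in each direction, against the same 12.8%. Dusp6, which acts on ERK, had means of 74.9 TPM in fBM-MSCs, 103 TPM in vBM-MSCs, 74.8 TPM in A-MSCs and 48.7 in P-MSCs, whereas Dusp14 and Dusp4 were highest in P-MSCs at 81.4 and 83.9 TPM.

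Known AP-1 target genes did not move one way. Of 18 listed and 17 tested, 9 were called between fBM-MSCs and vBM-MSCs, 6 higher and 3 lower in fBM-MSCs, where 5.24% of all tested genes were higher and 7.56% lower, and the median log2 fold change was -0.54, so that the median and the count of calls point to opposite sides. Ccnd1, the cyclin D1 gene, had means of 606 TPM in fBM-MSCs, 264 TPM in vBM-MSCs, 35.4 TPM in A-MSCs and 129 in P-MSCs. Spp1, the osteopontin gene, had its highest mean in fBM-MSCs, at 49580 ± 30420 TPM (SD, n = 3). Its means were 5300 ± 5286 TPM (SD, n = 2) in vBM-MSCs, 363 TPM in A-MSCs and 221 in P-MSCs. Hmox1, a haem-degrading enzyme gene, had means of 4213, 3896, 2726 and 1459 TPM in the same order. Heat shock genes, which rise with protein damage, had 2 of 14 called between the marrow sources, 1 in each direction, near the 12.8% of all tested genes, and 8 of 14 lower in vBM-MSCs than in P-MSCs, where 17.7% were lower. Hsph1, Hsp90aa1 and Hspd1, all chaperone genes, were highest in P-MSCs, at means of 71.5, 1018 and 519.5 TPM, against 26.7, 437.7 and 188.9 TPM in vBM-MSCs.

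The lists were also counted in the other comparisons of vBM-MSCs, where 13.2% of all tested genes were higher and 12.4% lower than in A-MSCs, and 21% were higher and 17.7% lower than in P-MSCs. Several of the counts, such as 11 of 40 or 5 of 28, are near these shares. Of the 40 other early response genes, 10 were higher and 3 lower than in A-MSCs, and 11 were higher and 6 lower than in P-MSCs. Of the 28 genes of the SRF, TCF, CREB and MAP kinase list, 1 was higher and 5 lower than in A-MSCs, and 1 was higher and 7 lower than in P-MSCs. Of the 17 AP-1 targets tested, 6 were higher and 2 lower than in A-MSCs, and 10 were higher and 1 lower than in P-MSCs. Of the 10 further AP-1 factors tested, 1 was higher than in A-MSCs and 2 were higher than in P-MSCs, with none lower.

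The genes most like a member were found by Pearson's r of log2(CPM + 1) over all 11 libraries, which fall into 4 tissues, and are given as a description. Nearest to Fos were Cyp51 (r = 0.969), Epha4 (0.956) and Tubb2a (0.939). Nearest to Jun were Clk2 (r = 0.970), Sptan1 (0.933) and Wbp4 (0.906), and nearest to Egr1 were Zic4 (r = 0.965), Gm20756 (0.964) and Thbs1 (0.957). Zic4 and Gm20756 were listed at 0 in all tissues but vBM-MSCs. Nearest to Dusp1 were Crct1 (r = 0.968), Lingo1 (0.930) and Tmod3 (0.930), and nearest to Atf3 were Fam134c (r = 0.897), Olfml2b (0.884) and Sh3pxd2b (0.870).

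Open chromatin at the members was then compared with their RNA. Each tissue has 1 list of ATAC-seq summits, the points of most transposase cuts in an open region, made from pooled samples, so the values have no replicate error and no test. The vBM-MSC list pools 3 replicates, whereas the vBM-MSC RNA beside it comes from 2 libraries. All 10 members had a summit within 1 kb of their start in every tissue, and so did 82.4% of the 12021 tested genes with a start on chromosomes 1 to 19. Fold enrichment (reads at the summit over the genome-wide mean) moved in steps of 0.368 in each list.

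Between tissues the strongest promoter summit of a member varied by 1.18 to 2.46 times, whereas mean TPM varied by 1.82 to 53.7 times. These measures have unlike scales, and the same ranges over all tested genes are not given here. Whether the contrast is particular to the members was thus not tested. At Fos the enrichment was 17.7 (fBM-MSCs), 20.2 (vBM-MSCs), 23.2 (A-MSCs) and 18.4 (P-MSCs), a range of 1.31 times beside an RNA range of 11.4 times. At Egr2 it was 17.3, 16.6, 17.3 and 12.5 in the same order, and P-MSCs, with the lowest RNA, thus still had an open promoter. At Egr1 it was 40.8, 50.8, 47.5 and 35.7, highest in vBM-MSCs as its RNA was. At Jun it was 39.4, 39.0, 40.8 and 52.6, highest in P-MSCs as its RNA was. At Atf3 it was 29.8, 25.0, 36.8 and 61.4, the widest enrichment range of all members at 2.46 times, beside a range of 3.29 times in mean TPM, where the test among the tissues was not passed. In 4 of the 10 members (Jun, Junb, Egr1 and Ier2) the tissue with the highest enrichment was also that with the highest mean TPM, near the 31.4% of 9642 tested genes with a promoter summit in every tissue. At Fosb (10.7), Atf3 and Dusp1 (15.4) vBM-MSCs had the lowest enrichment of the 4 tissues and the highest mean TPM.

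**Figure D4:**
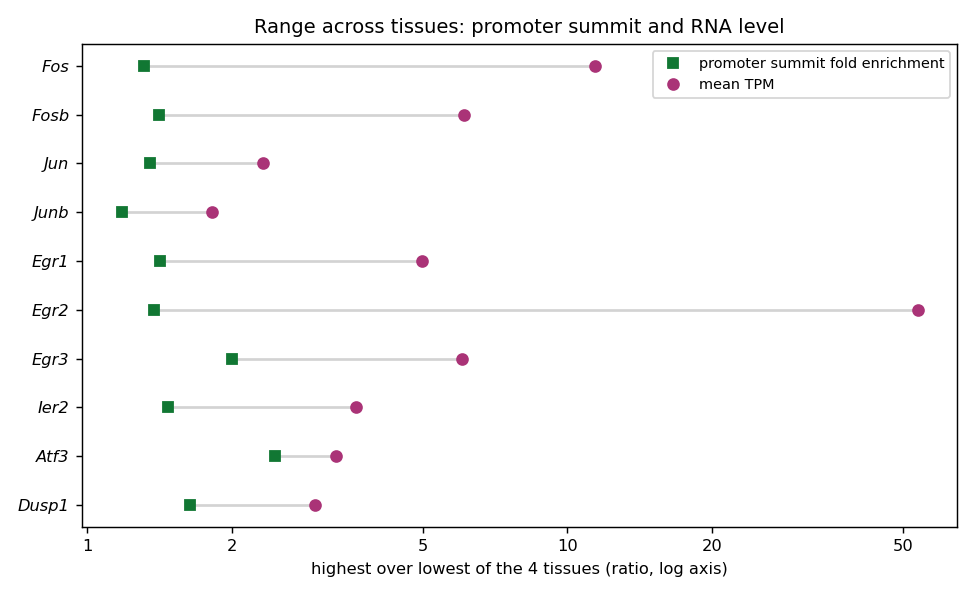
Ratio of the highest to the lowest of the 4 tissues (log axis) for each member, with squares for the fold enrichment of the strongest promoter summit and circles for mean TPM. The squares lie between 1.18 and 2.46 and the circles between 1.82 and 53.7, each circle to the right of its square. The measures have unlike scales, and the ranges over all tested genes are not given.

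Within 20 kb of the starts, summits of the 4 lists fell into 106 regions, of which 54 were found in all 4 tissues, 11 in 3, 18 in 2 and 23 in 1. Of the 23, 10 were in A-MSCs, 7 in vBM-MSCs, 4 in P-MSCs and 2 in fBM-MSCs. Around all tested genes on chromosomes 1 to 19, 27.2% of such regions were found in 1 tissue, 9.18% in A-MSCs, 5.46% in vBM-MSCs, 6.12% in P-MSCs and 6.46% in fBM-MSCs, and around the members 21.7%, so that this share was not above the background. The summits used numbered 71345 in A-MSCs, 59536 in vBM-MSCs, 64057 in P-MSCs and 64300 in fBM-MSCs. Around Egr1, 4 of 11 regions were listed in vBM-MSCs alone, at 5750 bases upstream and at 322, 1717 and 2787 bases downstream of the start, with enrichments of 6.99, 8.46, 6.62 and 5.89. The last 3 lie within the Egr1 gene, in the tissue with most Egr1 RNA, and a further one within the gene, 1157 bases downstream of the start, was listed in A-MSCs alone (5.52), the tissue with the lowest mean Egr1 TPM. One more region, 4808 bases upstream, was found in both marrow sources and in neither other tissue, with an enrichment of 15.4 in fBM-MSCs and 9.57 in vBM-MSCs, and so was a weaker one 5063 bases downstream, with 5.89 and 6.99. Around Egr2, a region 9001 bases upstream was found in fBM-MSCs (8.09), vBM-MSCs (9.93) and A-MSCs (9.56) and not in P-MSCs at this threshold.

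Fos had a pair of strong regions far from its promoter, shared by all tissues. The upstream one, at 18527 bases before the start, had enrichments of 33.5 (fBM-MSCs), 34.2 (vBM-MSCs), 43.0 (A-MSCs) and 46.4 (P-MSCs), all above the promoter values. The downstream one, at 12186 bases after the start and beyond the end of the gene, had 20.2, 27.2, 26.9 and 45.2. Their 151 central bases are shown because their mean enrichment was the highest among Fos regions beyond 1 kb that all 4 tissues shared. Both are on the plus strand of GRCm38 with capitals as above, at chr12:85455288-85455438 and chr12:85486001-85486151.
Fos upstream region: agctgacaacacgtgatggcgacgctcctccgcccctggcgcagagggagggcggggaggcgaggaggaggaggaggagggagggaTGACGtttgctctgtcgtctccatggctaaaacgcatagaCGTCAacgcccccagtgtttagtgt
Fos downstream region: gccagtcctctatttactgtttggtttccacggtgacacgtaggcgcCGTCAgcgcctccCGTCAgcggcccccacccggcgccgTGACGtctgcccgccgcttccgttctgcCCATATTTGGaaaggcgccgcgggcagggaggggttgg
The downstream region holds a CArG box and 3 CRE cores, and the upstream one 2 CRE cores. The share of all summits with a CArG box or a CRE core is not given here, so these matches only describe letters. Over all summits, an AP-1 site within the 151 bases was found in 23.9% (fBM-MSCs), 16.9% (vBM-MSCs), 19.9% (A-MSCs) and 24.4% (P-MSCs). Among summits that flank the 7 members with a promoter entry, beyond 1 kb from the start, the shares were 14.8%, 11.5%, 8.22% and 13.8%.

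**Figure D5:**
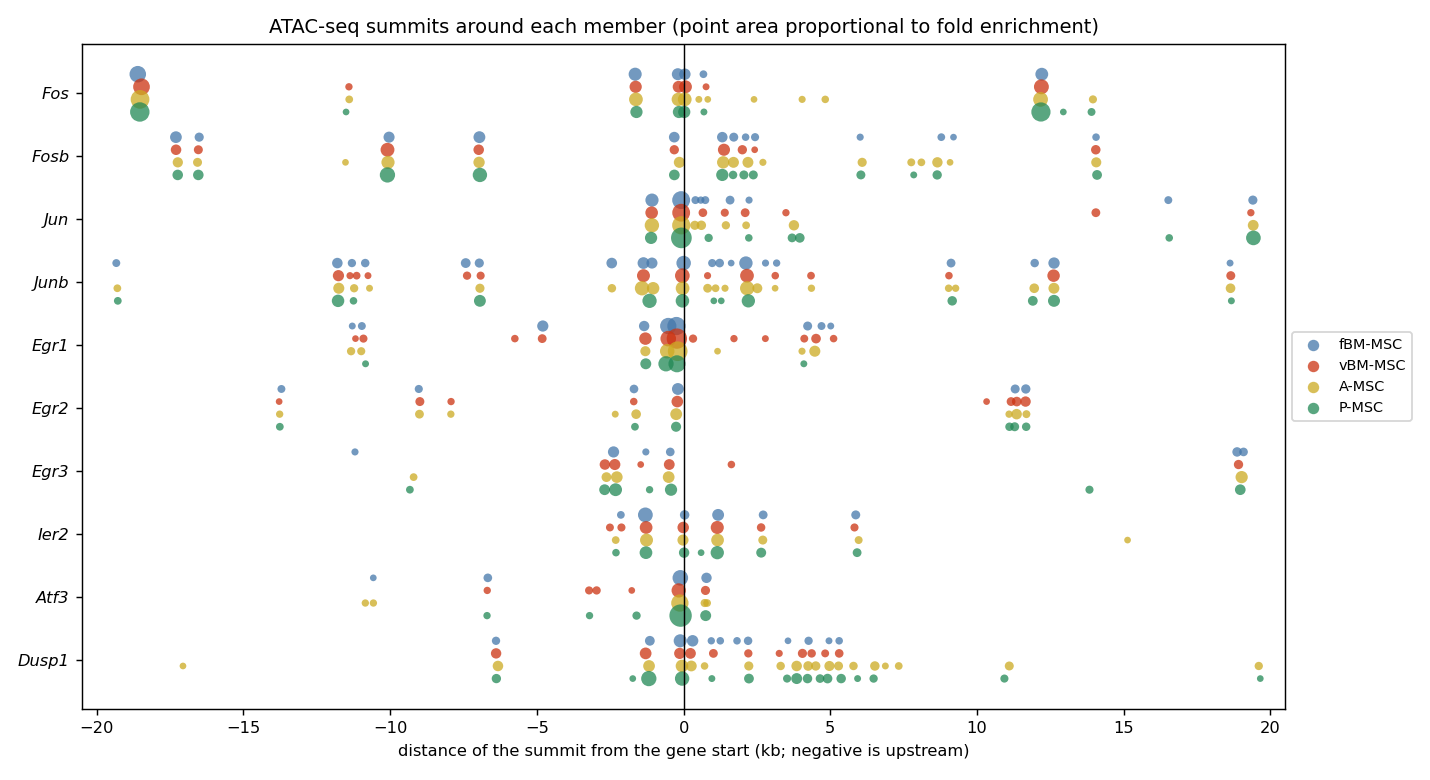
Position of each ATAC-seq summit within 20 kb of the start of each member (kb, negative upstream on the strand of the gene), with a row of points for each tissue and point area proportional to fold enrichment. Every member has summits of all 4 tissues at its start, and the Fos row shows its strong regions at both sides.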

How the data were processed

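RNA was analysed in 11 libraries, without vBM-MSC replicate 3, which was not used here. The authors made Smart-seq2 libraries, which carry no strand and no molecular identifiers, and ran RSEM with STAR on mm10. The deposited expected counts are RSEM's estimated counts per gene without normalization, and the deposited TPM values are scaled by the authors for transcript length and library. In ATAC-seq, reads were trimmed (Trim Galore) and aligned (Bowtie) by the authors, who removed duplicates with Picard, shifted reads for Tn5 and called summits with MACS2. Their deposited lists give a fold enrichment (a ratio) and a −log10 q per summit, and the summit offset in bases, as another deposited value. Versions are not given in the sources used here.

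The rounded counts were tested with edgeR 4.0.16 (R 4.3.3), by the two-sided quasi-likelihood F test with TMM factors of 0.913 to 1.11, tissue as the only term, on genes whose CPM reached 1 in 2 or more libraries. Adjusted p-values are Benjamini-Hochberg values over 12509 genes, called under 0.05, with 7 residual degrees of freedom. TPM serves for levels and expected counts for fold changes. Precision is limited by 2 to 3 libraries per tissue. Scripts were tested on simulated data. Alternatives were DESeq2 1.42.0, its size factors in edgeR, limma 3.58.1 on log2(TPM + 1) and log2(TPM + 0.1), other filters, a replicate block, each library left out, and the 2 tissues alone.

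Summits with a −log10 q of at least 7 were used, and those within 300 bases of the next were joined into regions. Starts come from RefSeq GRCm38. The members and lists were chosen with earlier results of these data known. All members were named, with the 3 genes of the smallest adjusted p among the tissues from each list except the cell type markers, and the 3 most similar genes for Fos, Jun, Egr1, Atf3 and Dusp1.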

Additional observations from a re-analysis of the deposited data

How the results depend on the processing

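No called difference of a member changed direction under any alternative run. Of the 33 calls in the 6 pairs of tissues, 18 held in every alternative. Leaving out 1 library gave 7 to 9 members called among the 4 tissues, 4 to 7 in fBM-MSCs against vBM-MSCs, 3 to 5 in fBM-MSCs against A-MSCs, 4 to 6 in fBM-MSCs against P-MSCs, 3 to 6 in vBM-MSCs against A-MSCs (3 without vBM-MSC replicate 2), 5 to 8 in vBM-MSCs against P-MSCs, 2 to 7 in A-MSCs against P-MSCs and 3 to 6 in marrow against non-marrow MSCs. Without a vBM-MSC library that tissue has 1 library, which is assumed to vary like the others. With only the 2 tissues compared, 3 members were called in fBM-MSCs against vBM-MSCs, a fit with fewer samples, and 297 of all genes instead of 1601. Without vBM-MSC replicate 1 the latter count was 610. At a CPM of at least 5, 7 members were called among the tissues, of 8 tested, as Fosb and Egr3 did not pass this filter. Promoter summits in every tissue were found for 9 members at a −log10 q of at least 20 or within 500 bases, and for 10 with all summits or within 2500 bases. The labels do not tie replicate numbers to mice, so whether they pair the samples is unresolved: of 15 same-number pairs, 1 had deviations correlated over 0.1, and 7 of 11 libraries correlated best with their own number. With the replicate block, 8 members were called among the tissues, 6 in fBM-MSCs against vBM-MSCs, 3 and 5 in fBM-MSCs against A-MSCs and P-MSCs, 4 and 7 in vBM-MSCs against A-MSCs and P-MSCs, 6 in A-MSCs against P-MSCs and 4 in marrow against non-marrow MSCs. The lowest counts in a library were 11 for Fosb, 16 for Egr3 and 1 for Atf3, and the part of depth in their spread was not tested.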
